A study of Mus musculus with 6 samples.

Results

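The genes described here are 10 dual-specificity phosphatases of the mouse, Dupd1, Dusp1, Dusp3, Dusp4, Dusp6, Dusp10, Dusp13, Dusp16, Dusp18 and Dusp26. They were picked by gene symbol out of 19057 genes with a named probe, and 27 of the 45281 probes on the array read them. The list was drawn up with the result of the same comparison in view, so that the differences of these 10 genes are given as a description, with no p-value. RNA was measured on Illumina Mouse WG-6 v2 BeadChips in 6 tibialis anterior (TA) muscles, 3 that had received AAV8-Prox1 and 3 that had received AAV8-mCherry. The muscles came from male C57Bl/6J mice, 3 months old by the labels. AAV8 is an adeno-associated virus used to carry a gene into muscle fibres. It was injected at 8 weeks of age and the muscles were studied 4 weeks later. In the AAV8-Prox1 muscles the virus encoded the homeobox transcription factor Prox1, and in the AAV8-mCherry muscles, which were the muscles of the opposite leg, it encoded the red fluorescent protein mCherry with a nuclear localization signal. The promoter in the virus was not given in the sources used here. The labels do not say which muscles shared a mouse, and the study counts its replicates as animals. The errors and p-values cover the spread between these 6 muscles.

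Dual-specificity phosphatases remove phosphate from tyrosine and also from serine or threonine. Those known as MAP kinase phosphatases undo the paired phosphorylation that switches on ERK, JNK and p38, the kinases through which cells answer growth factors, stress and, in muscle, contraction. Several of them are themselves induced by MAP kinase signalling and so form a feedback loop. A second group, the atypical phosphatases, lacks the domain with which the MAP kinase phosphatases hold their substrates. Dupd1, whose human counterpart is called DUSP29, and Dusp13 belong to the second group and are known from skeletal muscle.

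The sequence in front of the start of 3 genes is shown first, because Dupd1 had the largest difference of the 10, Dusp13 is its neighbour in the genome, and Dusp1 had the next largest difference. RefSeq start sites on GRCm38.p6 were matched by symbol for 8 of the 10 genes, with 11 starts in all, and none was taken for Dusp4 and Dusp26. Each line holds the 250 bases upstream of a start, read 5′ to 3′ on the strand of the gene. The windows are chr14:21714577-21714826 on the minus strand for Dupd1, chr14:21748623-21748872 on the minus strand for the first of 4 starts of Dusp13, and chr17:26508473-26508722 on the minus strand for Dusp1. Capitals mark E-boxes and the MEF2 motif in Dupd1 and Dusp13, and the letters TGACG on either strand in Dusp1.
Dupd1: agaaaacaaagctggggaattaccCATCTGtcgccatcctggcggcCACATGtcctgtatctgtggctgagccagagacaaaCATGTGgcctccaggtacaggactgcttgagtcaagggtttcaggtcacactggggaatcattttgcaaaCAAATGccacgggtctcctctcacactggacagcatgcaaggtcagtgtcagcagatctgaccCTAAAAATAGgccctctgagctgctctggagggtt
Dusp13: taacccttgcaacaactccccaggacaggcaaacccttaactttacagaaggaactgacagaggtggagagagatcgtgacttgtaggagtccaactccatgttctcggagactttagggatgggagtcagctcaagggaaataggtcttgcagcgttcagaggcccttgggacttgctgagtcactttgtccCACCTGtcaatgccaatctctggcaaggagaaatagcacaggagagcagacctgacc
Dusp1: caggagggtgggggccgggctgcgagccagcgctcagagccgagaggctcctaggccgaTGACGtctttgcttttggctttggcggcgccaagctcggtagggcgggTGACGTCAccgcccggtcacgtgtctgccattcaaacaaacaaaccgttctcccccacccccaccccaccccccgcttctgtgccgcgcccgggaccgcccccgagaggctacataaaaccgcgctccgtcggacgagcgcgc

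Motifs were searched as letters on both strands. An E-box is CANNTG, the letters that MyoD and other basic helix-loop-helix factors can bind. The Dupd1 window held 4 of them, 226, 204, 168 and 98 bases upstream, a motif present in 66.2% of all 32851 starts in windows of the same length. It also held 1 match to the MEF2 motif, an A/T-rich element of many muscle genes, 35 bases upstream of the start. The MEF2 motif occurred in 2.92% of all starts, and among the 11 starts of the 8 genes only Dusp16 had a further match, 57 bases upstream. The neighbouring Dusp13 had 1, 2, 4 and 2 E-boxes in its 4 windows and no MEF2 match in any of them. Dusp1 held the cyclic AMP response element TGACGTCA, the letters that CREB-family factors bind, 143 bases upstream, found in 1.55% of all starts. Its shorter core TGACG, which lies inside TGACGTCA and so is counted there on both strands, matched 3 times in Dusp1 and occurred in 17.8% of starts. The GC box GGGCGG had 3 matches in Dusp1 and occurred in 32.7% of starts. The Dupd1 window was 52.4% G and C and the Dusp1 window 68.4%, against a median of 52.4% over all starts. A match shows letters only, and a missing match says only that the letters are not in these 250 bases.

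**Figure D1:**
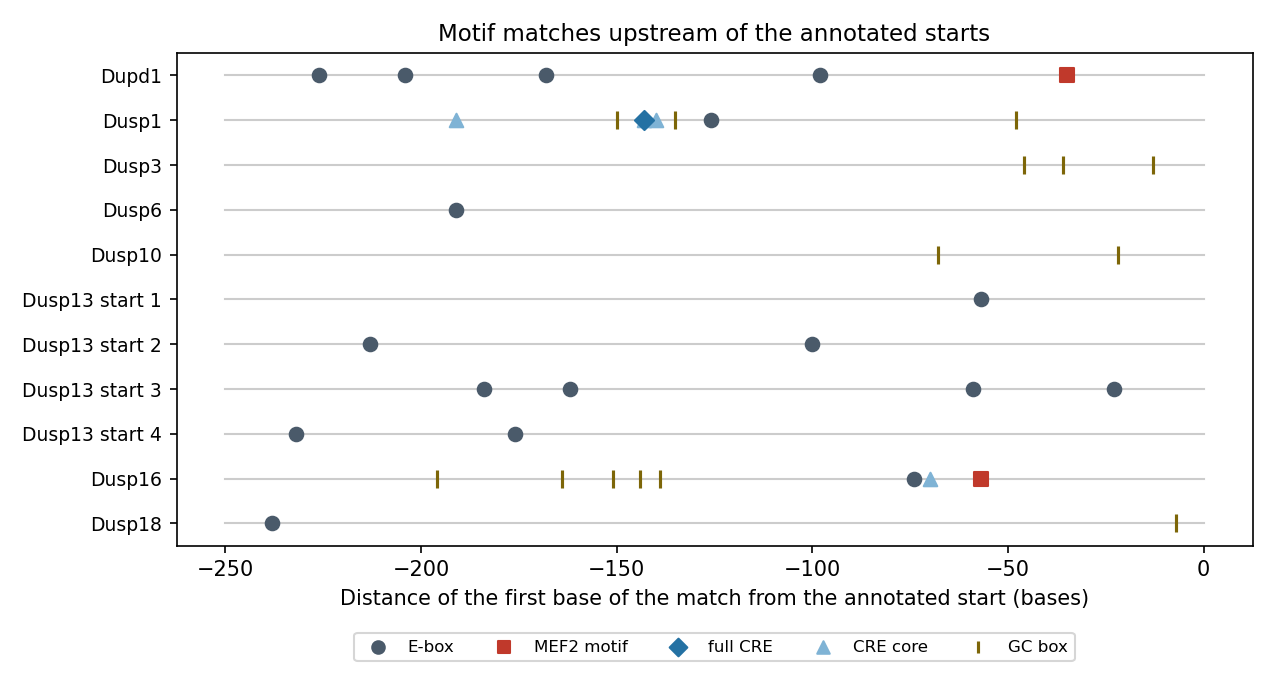
Positions of motif matches in the 250 bases upstream of the 11 annotated starts of 8 phosphatase genes, with the distance from the start in bases on the x axis and 1 row per start. Dupd1 carries 4 E-boxes and a MEF2 match 35 bases upstream, and Dusp1 carries the full CRE 143 bases upstream.

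The values are log2 signals that the authors had quantile-normalized, from 6.32 to 14.99, with a median of 6.61 on every array. A log2 signal of 7 was taken as the limit below which a probe is not told from background. The arrays correlated at 0.99 to 0.994 within a group and at 0.967 to 0.974 between groups, over 10642 probes with a mean at the limit. The 2 Prox1 probes stayed at background on all 6 arrays, between 6.42 and 6.59 in AAV8-Prox1 muscles and between 6.50 and 6.62 in AAV8-mCherry muscles, so they give no check of the labels. The tissue label was borne out by 8 of 8 muscle fibre markers at the limit. Of these, Myh4, Tnnt3, Mylpf and Tnni2 were lower in AAV8-Prox1 muscles, and Acta1, Ckm, Pvalb and Actn3 were not called. Fast fibre genes stood in both sets, with log2 differences of -0.05 for Pvalb and 0.02 for Actn3. The 4 not called read 14.52 to 14.87, near the highest value of 14.99. The summed linear signal of the 8 markers was 142000 to 148000 in AAV8-Prox1 muscles and 165000 to 169000 in AAV8-mCherry muscles. Among markers of other cells, 2 of 7 measured macrophage genes (Mrc1, and Cd14, which was under the limit on every array), 1 of 8 fibroblast genes (Lum) and 1 of 6 satellite cell genes (Des, which fibres also express) were higher, and 1 of 8 endothelial genes (Tie1) was lower. The macrophage sum was 1100 to 1230 in AAV8-Prox1 muscles and 867 to 1020 in AAV8-mCherry muscles, with Adgre1, Csf1r, Cd163 and Itgam also at background on every array. The fibroblast sum was 5280 to 6130 in AAV8-Prox1 muscles and 3320 to 4640 in AAV8-mCherry muscles, with Col1a2, Col3a1 and Dpt at background. Its brightest gene, Dcn, read 11.73 to 12.09 in AAV8-Prox1 muscles and 11.13 to 11.59 in AAV8-mCherry muscles and was not called. The satellite cell sum was 15900 to 16500 in AAV8-Prox1 muscles and 10600 to 11900 in AAV8-mCherry muscles, with Pax7 and Myf5 at background. Nearly all of the satellite cell sum was Des, which read 13.87 to 13.92 in AAV8-Prox1 muscles and 13.23 to 13.42 in AAV8-mCherry muscles. The endothelial sum was 3170 to 3740 in AAV8-Prox1 muscles and 4090 to 5180 in AAV8-mCherry muscles. None of the markers of T cells, Schwann cells, smooth muscle or blood that were measured passed the test. The 5 T cell markers were at background on every array. The smooth muscle sum was 4200 to 5360 in AAV8-Prox1 muscles and 5610 to 5640 in AAV8-mCherry muscles. The sums of the T cell, Schwann cell and blood markers overlapped between groups. The part of these cells in the phosphatase values was not tested. In whole muscle, fewer cells of a type and less RNA per cell cannot be told apart.

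A gene was read from its brightest probe, and called where a limma fit across all 45281 probes gave an adjusted p under 0.05. By this rule 3 of the 10 phosphatases were higher in AAV8-Prox1 muscles, Dupd1, Dusp1 and Dusp4, and 1, Dusp10, was lower. The other 6, Dusp3, Dusp6, Dusp13, Dusp16, Dusp18 and Dusp26, did not pass. Over the whole array 5.23% of genes were called higher and 4.21% lower, 9.44% in either direction, and nothing is read from the member count against these shares, since the genes were chosen on this comparison. The arrays of the groups did not overlap for 4 genes with higher AAV8-Prox1 values, those named and Dusp6, and for Dusp10 with lower ones, where the whole array had 12.2% and 11.1% of genes. The median log2 difference of the 10 was 0.12, against 0.00 over all genes. Of the genes, 9 reached the limit in all 3 arrays of a group and Dusp18 did not. In the order of all genes by log2 difference, Dupd1 stood at place 5 from the top, Dusp1 at 80 and Dusp6 at 556, and Dusp10 at 678 from the bottom. No place is given for Dusp4, whose AAV8-mCherry values were all under the limit.

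**Figure D2:**
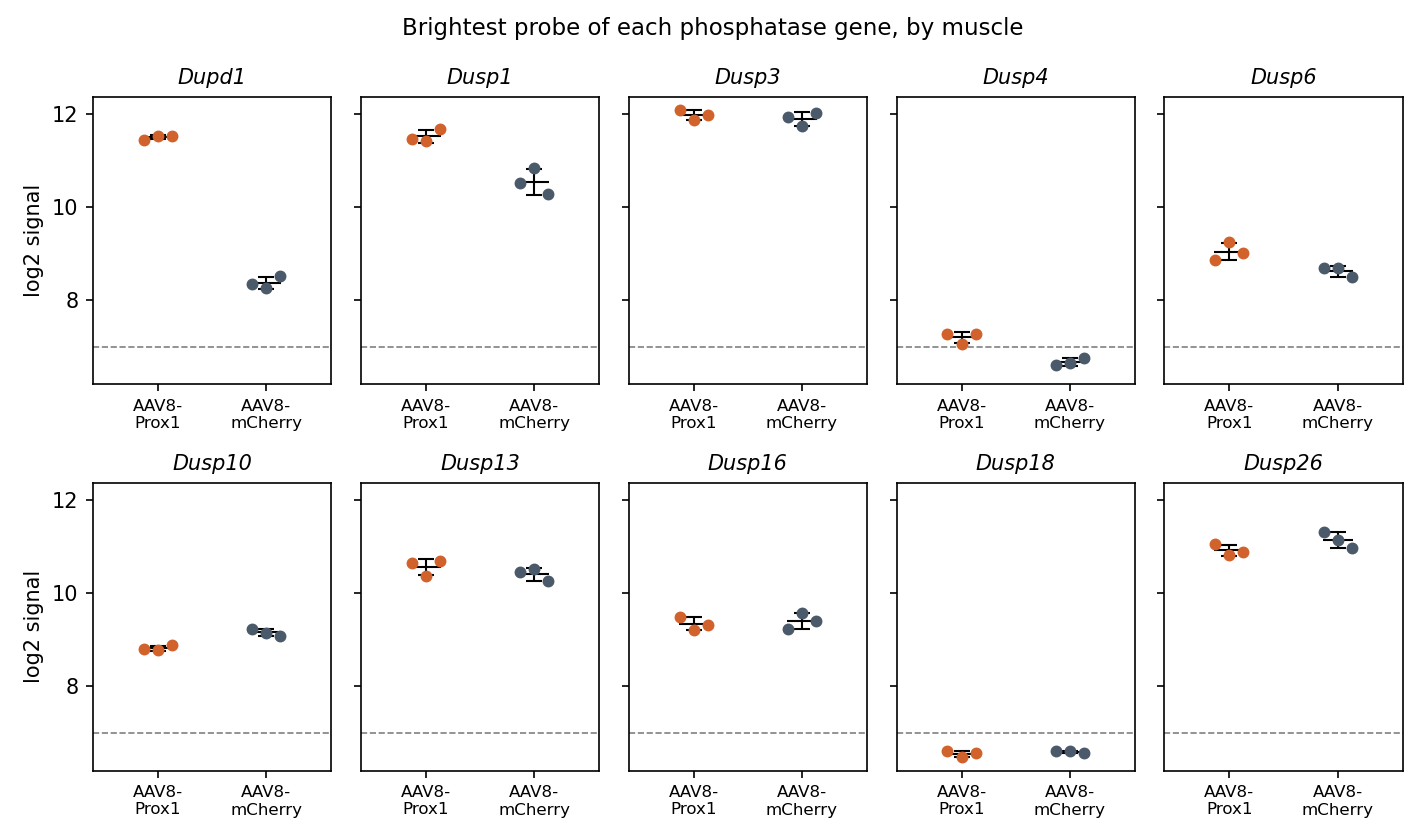
Log2 signal of the brightest probe of each of the 10 phosphatase genes, with 1 point per muscle (AAV8-Prox1 in orange, AAV8-mCherry in grey), the mean and SD as a bar (n = 3 each), and the limit of 7 as a dashed line. Dupd1 stands apart by 3.14 on the log2 scale, Dusp1 and Dusp4 by less, and Dusp18 lies under the limit in all 6 muscles.

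Dupd1 encodes a small atypical phosphatase found mainly in skeletal muscle. Its brightest probe read 11.45, 11.54 and 11.54 in AAV8-Prox1 muscles and 8.34, 8.26 and 8.51 in AAV8-mCherry muscles. Every AAV8-Prox1 muscle was therefore far above every AAV8-mCherry muscle, and the AAV8-Prox1 muscles lay within a narrow band. The means were 11.51 ± 0.05 and 8.37 ± 0.13 (SD, n = 3 each), a log2 difference of 3.14 ± 0.07 (SE), or 8.82-fold. A second Dupd1 probe read 11.13, 11 and 11.42 in AAV8-Prox1 muscles and 7.82, 7.49 and 7.83 in AAV8-mCherry muscles, a difference of 3.47 ± 0.13 (SE), or 11.1-fold. The dimmest Dupd1 probe read 9.79, 9.58 and 9.97 in AAV8-Prox1 muscles and 6.92, 7.02 and 6.86 in AAV8-mCherry muscles, a difference of 2.85 ± 0.09 (SE) in which only 1 of the 3 AAV8-mCherry arrays reached the limit. The 3 probes ran the same way and were all called higher. The 3 probes share the 6 RNA samples and are not independent.

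Dusp13 lies next to Dupd1 on chromosome 14 of the RefSeq gene order and is known for protein forms in testis and in muscle. Its brightest probe read 10.66, 10.37 and 10.69 in AAV8-Prox1 muscles and 10.46, 10.52 and 10.26 in AAV8-mCherry muscles. The groups overlapped, with means of 10.57 ± 0.18 in AAV8-Prox1 muscles and 10.41 ± 0.14 in AAV8-mCherry muscles (SD, n = 3 each) and a log2 difference of 0.16 ± 0.10 (SE). The other 3 probes gave differences of -0.24, 0.07 and -0.11, and none was called. The probe at -0.24 read 8.37, 7.94 and 7.91 in AAV8-Prox1 muscles and 8.24, 8.45 and 8.24 in AAV8-mCherry muscles. The probe at -0.11 stayed under the limit on every array. The neighbouring genes thus differed in value, 3.14 for Dupd1 and 0.16 for Dusp13, and the difference between them was not tested.

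Dusp1 (MKP-1) is a nuclear phosphatase that acts on p38, JNK and ERK, and it is itself an early response gene. Its single probe read 11.46, 11.42 and 11.69 in AAV8-Prox1 muscles and 10.53, 10.84 and 10.28 in AAV8-mCherry muscles. The groups did not overlap, and replicate 3 was the highest of the AAV8-Prox1 muscles and replicate 3 the lowest of the AAV8-mCherry muscles. The means were 11.52 ± 0.15 in AAV8-Prox1 muscles and 10.55 ± 0.28 in AAV8-mCherry muscles (SD, n = 3 each), a log2 difference of 0.97 ± 0.14 (SE), or 1.96-fold. Dusp4 (MKP-2), also nuclear, read 7.28, 7.05 and 7.26 in AAV8-Prox1 muscles and 6.61, 6.64 and 6.76 in AAV8-mCherry muscles on its brightest probe. The AAV8-Prox1 muscles were just above the limit and the AAV8-mCherry muscles under it. The means were 7.20 ± 0.13 in AAV8-Prox1 muscles and 6.67 ± 0.08 in AAV8-mCherry muscles (SD, n = 3 each), and the log2 difference was 0.53 ± 0.07 (SE). Measured against the limit instead of the dim values, the AAV8-Prox1 mean of Dusp4 was at least 1.15-fold higher. The other 3 Dusp4 probes were at background, with differences of 0.12, 0.19 and 0.04, and were not called, and the mean of all 4 probes differed by 0.22.

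Dusp6 (MKP-3), a cytoplasmic phosphatase of ERK, read 8.87, 9.24 and 9.01 in AAV8-Prox1 muscles and 8.70, 8.68 and 8.49 in AAV8-mCherry muscles. All 3 AAV8-Prox1 values lay above the AAV8-mCherry values, but the nearest pair was close. The means were 9.04 ± 0.19 in AAV8-Prox1 muscles and 8.62 ± 0.12 in AAV8-mCherry muscles (SD, n = 3 each), a log2 difference of 0.42 ± 0.10 (SE), which was not called. Without AAV8-Prox1 replicate 1 it was 0.50 and was called. The other 2 probes were at background, with differences of -0.01 and -0.02, and the mean of all 3 probes differed by 0.13.

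Dusp10 (MKP-5) and Dusp16 (MKP-7) act on JNK and p38. Dusp10 read 8.80, 8.78 and 8.88 in AAV8-Prox1 muscles and 9.24, 9.15 and 9.09 in AAV8-mCherry muscles on its brightest probe. The AAV8-Prox1 muscles lay below all the AAV8-mCherry muscles, with means of 8.82 ± 0.05 in AAV8-Prox1 muscles and 9.16 ± 0.08 in AAV8-mCherry muscles (SD, n = 3 each). The log2 difference was -0.34 ± 0.05 (SE), or 1.27-fold lower. A second Dusp10 probe read 7.64, 7.34 and 7.53 in AAV8-Prox1 muscles and 7.59, 7.81 and 7.62 in AAV8-mCherry muscles, and there the groups overlapped, at a difference of -0.17 that was not called. Dusp16 read 9.49, 9.22 and 9.33 in AAV8-Prox1 muscles and 9.24, 9.58 and 9.41 in AAV8-mCherry muscles. The groups overlapped, at a log2 difference of -0.06 ± 0.10 (SE), and its other 3 probes gave -0.09, 0.03 and 0.00.

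The remaining members are small atypical phosphatases. Dusp3 (VHR), which acts on ERK and JNK, read 12.10, 11.87 and 11.98 in AAV8-Prox1 muscles and 11.94, 11.74 and 12.03 in AAV8-mCherry muscles. Its groups overlapped at a log2 difference of 0.08 ± 0.08 (SE). The other 3 Dusp3 probes gave 0.08, 0.15 and 0.11, and at 0.15 the arrays did not overlap but the probe was not called. Dusp26 read 11.06, 10.83 and 10.89 in AAV8-Prox1 muscles and 11.32, 11.14 and 10.97 in AAV8-mCherry muscles, a difference of -0.22 ± 0.09 (SE). The highest AAV8-Prox1 value lay above the lowest AAV8-mCherry value, and the gene was not called. Dusp18 read 6.60, 6.47 and 6.56 in AAV8-Prox1 muscles and 6.61, 6.60 and 6.57 in AAV8-mCherry muscles. All 6 values lie at background, so that no fold is given for it.

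**Figure D3:**
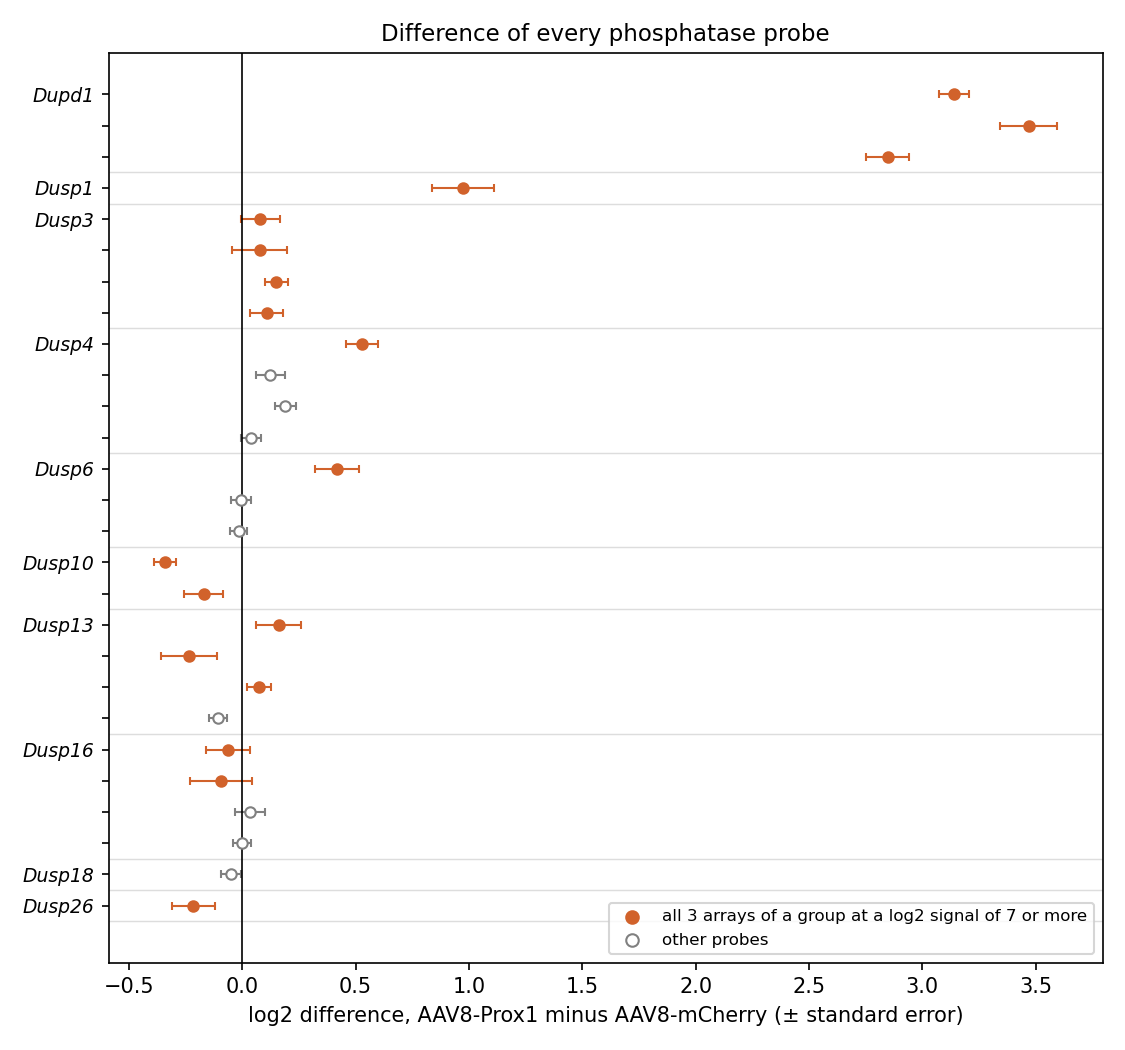
Log2 difference, AAV8-Prox1 minus AAV8-mCherry, of all 27 phosphatase probes with the standard error (n = 3 arrays each), 1 row per probe and the brightest AAV8-Prox1 probe of a gene on top. Filled points reached a log2 signal of 7 in all 3 arrays of a group. The 3 Dupd1 probes lie between 2.85 and 3.47, and of the other probes only that of Dusp1 (0.97) and the top one of Dusp4 (0.53) lie above 0.5.

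Across their probes, 18 of the 27 reached the limit in all 3 arrays of a group, and 6 were called, 5 of them higher and 1 lower. Of all probes on the array 3.16% were called higher and 2.86% lower. Among genes with 2 or more probes, Dupd1 was called on 3 of 3 probes, Dusp4 on 1 of 4 and Dusp10 on 1 of 2, and all remaining probes of Dusp4 were at background.

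The patterns of Dupd1 and Dusp1 were set against those of the 6886 genes that reached the limit on at least 3 arrays, as the root mean square distance between the centred values over the 6 arrays. Genes closest to Dupd1 were Tnnt1 (slow troponin T, 0.26), Ankrd1 (a stress-responsive titin partner, 0.27), Rab15 (0.31), Atp2a2 (the slow fibre calcium pump, 0.44) and Ncam1 (a cell adhesion molecule, 0.44). Their log2 differences were 2.88, 3.34, 2.69, 2.28 and 2.42, and Dupd1's was 3.14. Averaged over all their probes, Atp2a2 differed by 0.96 and Ncam1 by 0.70. The distance rests mostly on the size of the group difference, so genes of like difference come first. Closest to Dusp1 were Panx1 (a channel protein, 0.07), Plp2 (0.11) and Mknk2 (a kinase of the initiation factor eIF4E, 0.12), with log2 differences of 0.96, 1.00 and 0.83. With the mean of all its probes Panx1 differed by 0.47.

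Of the 17 other dual-specificity phosphatase genes measured, 1 was higher and 1 lower in AAV8-Prox1 muscles, beside 5.23% and 4.21% of all genes. With the fit limited to probes at the limit on at least 3 arrays, 1 of 10 was higher and 1 lower. By that fit 1055 of 6890 genes were higher and 910 lower. The median log2 difference of the 17 was -0.10. The arrays of the groups did not overlap for 2 with higher and 6 with lower AAV8-Prox1 values, where the whole array had 12.2% and 11.1% of genes. Of the 6, Dusp2, Dusp15 and Styxl1 were under the limit on every array. Dusp7, named after its value was seen, had the largest difference, -0.67, and was not called. Its AAV8-mCherry arrays read 9.45, 10.66 and 9.56. A mean at the limit was reached by 10 of the 17, and for the rest a missing call does not show unchanged expression. The list was drawn up with earlier results of these data known, so its p-values are a description only. Dusp27, which lacks catalytic activity, read 8.86, 8.70 and 9.17 in AAV8-Prox1 muscles and 8.49, 8.35 and 8.26 in AAV8-mCherry muscles, a log2 difference of 0.54 ± 0.12 (SE, limma adjusted p = 0.0356). Its second probe gave 0.30 with a limma adjusted p of 0.255. Dusp23 read 9.63, 9.53 and 9.41 in AAV8-Prox1 muscles and 9.72, 9.84 and 9.83 in AAV8-mCherry muscles, a log2 difference of -0.27 ± 0.06 (SE, limma adjusted p = 0.0459). Its second probe gave -0.41 (limma adjusted p = 0.00812). The call of Dusp27 was lost without AAV8-mCherry replicate 1, 2 or 3 or AAV8-Prox1 replicate 1 (limma adjusted p of 0.0507, 0.0974, 0.123 and 0.0863), and that of Dusp23 without AAV8-mCherry replicate 1, 2 or 3 or AAV8-Prox1 replicate 2 or 3 (0.0517, 0.131, 0.143, 0.133 and 0.103). Over all alternatives the adjusted p ranged from 0.0027 to 0.123 for Dusp27 and from 0.0021 to 0.143 for Dusp23.

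The MAP kinase cascade list holds the substrates of these phosphatases and the kinases above them. Of its 29 measured genes, 3 were higher and none was lower by limma, beside 5.23% and 4.21% of all genes. With the fit limited to probes at the limit on at least 3 arrays, 2 of 19 were higher and none lower. By that fit 1055 of 6890 genes were higher and 910 lower. A mean at the limit was reached by 18 of the 29, and for the rest a missing call does not show unchanged expression. The list was drawn up with earlier results of these data known, so its p-values are a description only. At an unadjusted p under 0.05 there were 3 higher and 5 lower. No share of all genes was taken at that threshold, so nothing is read from these counts. The median log2 difference was -0.02. Without AAV8-mCherry replicate 2 there were 3 higher and 2 lower, 5 in all, and without AAV8-Prox1 replicate 2 there were 2 higher and 1 lower. Mapk12, p38 gamma, the p38 form typical of muscle, read 11.48, 11.49 and 11.57 in AAV8-Prox1 muscles and 10.90, 10.97 and 10.95 in AAV8-mCherry muscles, a log2 difference of 0.57 ± 0.04 (SE) or 1.49-fold (limma adjusted p = 0.000337). Map3k8, a kinase upstream of ERK, was at background in AAV8-mCherry muscles, and its AAV8-Prox1 mean was at least 1.09-fold higher (limma adjusted p = 0.00858). Map2k5, the activator of ERK5, differed by 0.22 ± 0.04 (SE, limma adjusted p = 0.013), and its adjusted p was 0.0532 without AAV8-Prox1 replicate 2, within a range of 0.0128 to 0.249 over its alternatives. Averaged over all their probes, the difference was 0.10 for Map2k5 and 0.20 for Map3k8.

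Dusp1 is an early response gene. The 22 other measured genes of early response and ERK feedback gave 6 higher and none lower by limma, beside 5.23% and 4.21% of all genes. With the fit limited to probes at the limit on at least 3 arrays, 7 of 13 were higher and none lower. By that fit 1055 of 6890 genes were higher and 910 lower. In the main fit Spry2, Spry4, Spred1, Spred2, Etv4 and Etv5 were not called, with log2 differences from -0.18 (Spred1) to 0.17 (Etv5). A mean at the limit was reached by 12 of the 22, and for the rest a missing call does not show unchanged expression. This list too was drawn up with earlier results of these data known, so its p-values are a description only. At an unadjusted p under 0.05 there were 11 higher and 1 lower, the lower one Spred1. Again no share of all genes was taken at that threshold, so nothing is read from these counts. The median log2 difference was 0.11. Fos read 7.96, 8.0 and 8.94 in AAV8-Prox1 muscles and 6.82, 6.93 and 6.96 in AAV8-mCherry muscles (limma adjusted p = 0.0145). Its AAV8-Prox1 mean of 8.30 ± 0.55 (SD, n = 3) was at least 2.46-fold higher. That bound is of the mean, which replicate 3 raised, and not of each muscle. Egr1 read 9.23, 9.35 and 9.45 in AAV8-Prox1 muscles and 8.31, 7.76 and 7.84 in AAV8-mCherry muscles, a log2 difference of 1.37 ± 0.14 (SE, limma adjusted p = 0.00151). Atf3 was at background in AAV8-mCherry muscles, and its AAV8-Prox1 mean was at least 2.28-fold higher (limma adjusted p = 0.00453). Jun differed by 0.73 ± 0.14 (SE, limma adjusted p = 0.0247). Dusp1, Fos, Egr1 and Jun were all highest in AAV8-Prox1 replicate 3, and Atf3 was highest in AAV8-Prox1 replicate 1. The remaining called genes, Fosl2 (0.40) and Jund (0.44), were named after their values were seen. With the mean of all its probes Fosl2 differed by 0.10 and was not called (limma adjusted p = 0.0942, over all alternatives 0.00644 to 0.0942). Without AAV8-mCherry replicate 3 the count fell to 3, and the limma adjusted p was then 0.050 for Fos, 0.0901 for Jun and 0.115 for Jund. Jun was also lost without AAV8-mCherry replicate 1 or AAV8-Prox1 replicate 2 (limma adjusted p of 0.0760 and 0.0941), and Jund without AAV8-mCherry replicate 1 or any 1 of the AAV8-Prox1 replicates. Over all alternatives the adjusted p ranged from 0.000479 to 0.0844 for Fos, 0.000346 to 0.0941 for Jun and 0.00331 to 0.115 for Jund.

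**Figure D4:**
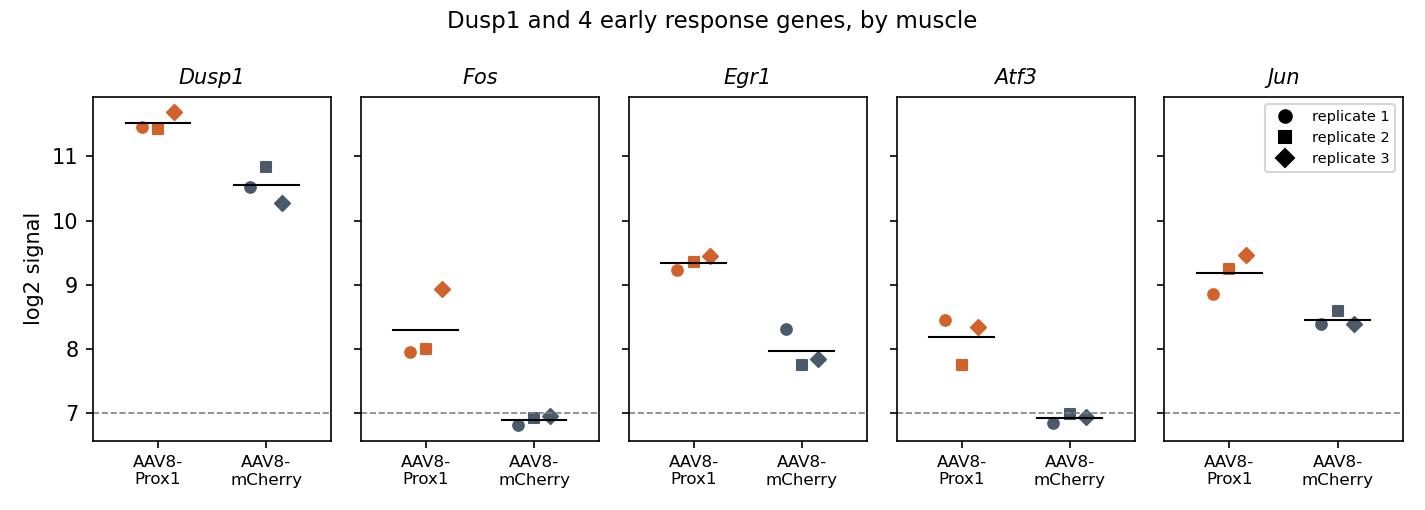
Log2 signal of Dusp1 and of Fos, Egr1, Atf3 and Jun in each muscle, with AAV8-Prox1 in orange and AAV8-mCherry in grey, the marker shape giving the replicate number, the line the mean (n = 3 each) and the dashed line the limit of 7. All 3 AAV8-Prox1 values lie above all 3 AAV8-mCherry values in each panel, and Fos and Atf3 are under the limit in AAV8-mCherry muscles.

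**Figure D5:**
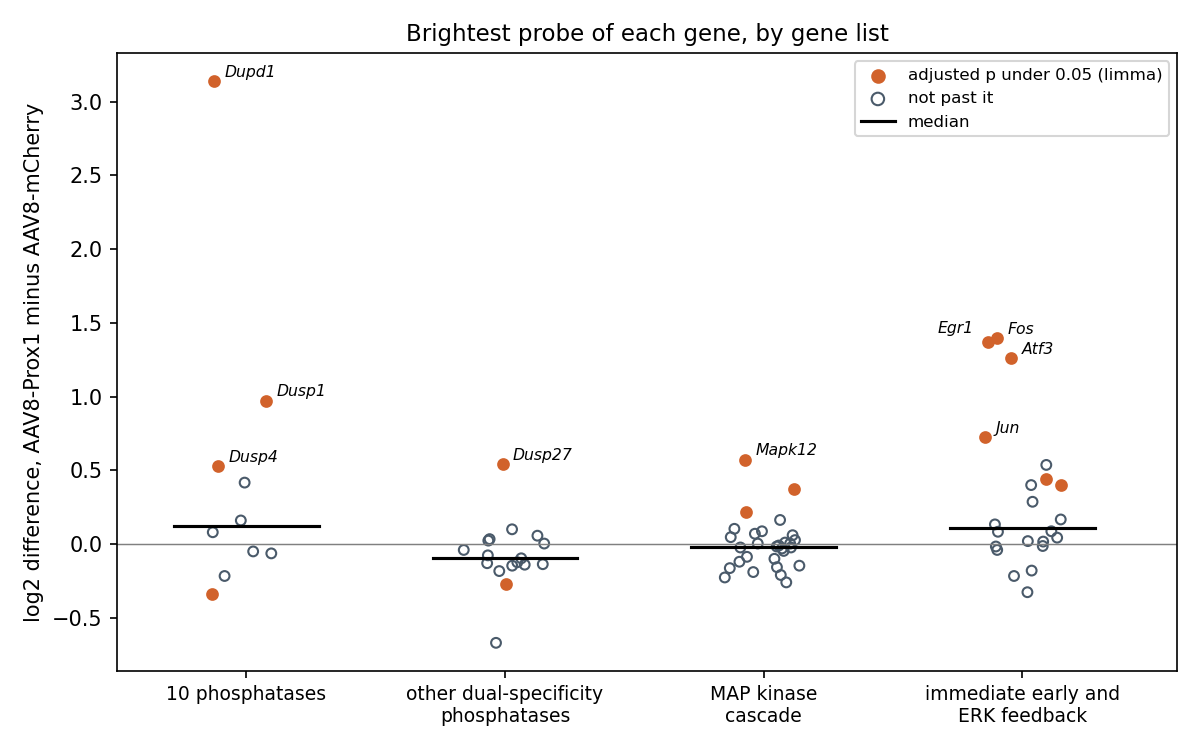
Log2 difference, AAV8-Prox1 minus AAV8-mCherry, of the brightest probe of each measured gene in 4 lists, with filled points for genes past the limma threshold and a bar for the median. The medians are 0.12 for the 10 phosphatases, -0.10 for the other phosphatases, -0.02 for the MAP kinase cascade and 0.11 for early response and ERK feedback genes. In that order, 8 of 10, 10 of 17, 18 of 29 and 12 of 22 genes had a mean at the limit of 7.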

How the data were processed

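The deposited values were log2 signals of Illumina Mouse WG-6 v2 BeadChips. The authors used GenomeStudio for quality control and Chipster for quantile normalization. Background correction was not given in the sources used here. A table of unnormalized signals held 12 per-sample columns that matched no sample by name and were not used. Of the probes, 34885 had 1 gene symbol, 18 several and 10378 none, and a gene was read from the probe with the highest mean over the 6 arrays.

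Groups were compared with limma 3.58.1 (lmFit and eBayes, R 4.3.3) on all 45281 probes, with Benjamini-Hochberg adjustment and a threshold of 0.05. With 3 arrays a group, an exact permutation test of a single gene, two-sided, cannot go below p = 0.1. The number of arrays limits the precision. The fit was tested on simulated data. Alternatives were cyclic loess, the mean of all probes, a filter on dim probes, trend and robust estimation, a replicate block, a stricter limit of 7.5, a minimum log2 difference of 0.5, and leaving out each array.

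The members and lists were chosen with earlier results of these data known, so the p-values printed for list genes are a description only. Named were all 10 members, up to 4 called genes of each other list with the largest difference, and the genes most like Dupd1 (5) and like each other member with a log2 difference of at least 0.5 (3). Those like Dusp4 are left out, because its AAV8-mCherry values were under the limit. Upstream sequences came from RefSeq on GRCm38.p6.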

Additional observations from a re-analysis of the deposited data

How the results depend on the processing

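Dupd1 (3.09 to 3.21), Dusp1 (0.84 to 1.12), Dusp4 (0.22 to 0.60) and Dusp10 (-0.38 to -0.26) were called in all 11 alternatives other than the limit of 7.5 and the minimum difference. In those 11, 4 or 5 phosphatases were called, of 10 tested or, with the filter on dim probes, of 9. With that filter 1965 of 6890 genes were called. No share of all genes was taken at the limit of 7.5 or with the minimum difference. With a minimum log2 difference of 0.5 the count of phosphatases was 3, without Dusp10. Dusp4 stood at 0.22 with the mean of all its probes, 3 of which were at background, and the stricter limit of 7.5 left it out, where Dupd1, Dusp1, Dusp6 and Dusp10 were the 4 called of 8 tested. Dusp6 was also called with cyclic loess, the filter on dim probes, and trend and robust estimation. Small differences changed sign: Dusp13 was -0.0275 with the mean of all probes, and without AAV8-mCherry replicate 2 Dusp16 was 0.0217 (-0.15 to 0.0217 with any 1 array left out) and Dusp3 -0.00167 (-0.00167 to 0.14). For the other phosphatases the count of 2 was 1 with trend and robust estimation and 0 to 1 with an array left out. For the early response list it was 3 to 6 and for the cascade 3 to 5 with an array left out. With the mean of all probes these counts were 5 and 2, and with the filter on dim probes 7 of 13 and 2 of 19. The cascade count was also 2 with trend and robust estimation. The replicate numbers gave no sign of pairing (deviation correlations of -0.18, 0.05 and -0.12, with 1 of 3 AAV8-Prox1 arrays correlating best with its own number). So few arrays cannot exclude it. With the replicate block 1280 genes were called in place of 1799, 4 of the 10 phosphatases and 0 of the other phosphatases. A background correction of raw signals and a slide block were not run, since raw columns matched no sample and no slide was given. A probe under the limit of 7 gives a bound only. The causes were not tested.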
